A study of Homo sapiens with 2 samples.

Results

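The BCL2 family genes described here encode proteins that decide whether the outer membrane of the mitochondrion stays closed or is opened during apoptosis. The 10 members were chosen by name, as the gene symbols BCL2L1, MCL1, BCL2L2, BAX, BAK1, BID, BAD, BMF, BCL2L11 and BBC3, out of 52402 symbols in the count tables. All 10 were found, each on 1 row of the table. RNA had been sequenced from DLD1, an established human colorectal adenocarcinoma cell line, in 1 control library (genotype WT) and 1 library labelled HERV-R Knockout. HERV-R is a human endogenous retrovirus, and the study's title sets its env knockout against the tumorigenic character of these cells. Both libraries carry the same treatment text, which names transfection with a Cas9 vector and a guide RNA vector and the picking of colonies under hygromycin. No source used here says which vectors went into the control, or whether a library stems from 1 clone.

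The family works as a balance of binding partners. Survival proteins such as BCL-xL (BCL2L1), MCL1 and BCL-w (BCL2L2) hold the effectors BAX and BAK (BAK1) in check. BH3-only proteins are the sensors: BIM (BCL2L11), PUMA (BBC3), BID, BAD and BMF occupy the survival proteins or act on the effectors, which then form pores that release cytochrome c. Colorectal tumour cells are known to lean on BCL-xL and MCL1 for survival.

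Since each group has 1 library, the knockout could not be tested and no difference has a replicate check. The control library held 21881122 counts and the knockout-labelled library 16406308. Gene positions are those of GENCODE v29 on GRCh38. Levels are given as counts per 1000000 counts of the library (CPM), and intervals are 95% counting intervals that cover counting error only. ERV3-1, which encodes the HERV-R envelope, had 127 counts in control cells and 125 in the knockout-labelled library (5.80 and 7.62 CPM), so its RNA was not lower there. A count over a gene does not see a small edit, and each direction below rests on the label. Of 12 colon epithelium markers 9 were measured, and the markers EPCAM (701 and 750 CPM) and CDH1 (854 and 704 CPM) were abundant in both, while CDX1 had 0 counts. The summed level of that list was 11554 CPM in control cells and 5820 CPM in the knockout-labelled library, with the keratin gene KRT18 at 4967 and 1741 CPM. Other members of the list were higher there, CDX2 with 99.4 and 298 CPM and VIL1 with 123 and 175 CPM. The part of these shifts in the results was not tested. Blood and immune markers summed to 5.53 and 3.66 CPM, fibroblast markers to 5.76 and 2.80 CPM and endothelial markers to 0.640 and 0.549 CPM, with CD3E and MS4A1 at 0 counts.

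The promoters of 4 members are shown because their genes had the widest differences of the family: BCL2L1 and BMF were lower in the knockout-labelled library, and BCL2L11 and BAX were higher. Each is the 250 bases before the outermost start that the RefSeq promoter table (GRCh38.p14) gives for the gene, written 5′ to 3′ on the strand of the gene. They lie at chr20:31723964-31724213 (minus strand), chr15:40108880-40109129 (minus strand), chr2:111120664-111120913 (plus strand) and chr19:48954625-48954874 (plus strand). GENCODE v29 draws longer genes, so 26 of the printed bases of BCL2L1, 13 of BMF and 60 of BAX lie in an exon there, and all 250 of BCL2L11 lie inside its gene but in no exon. Capitals mark the motifs named after the sequences.
BCL2L1: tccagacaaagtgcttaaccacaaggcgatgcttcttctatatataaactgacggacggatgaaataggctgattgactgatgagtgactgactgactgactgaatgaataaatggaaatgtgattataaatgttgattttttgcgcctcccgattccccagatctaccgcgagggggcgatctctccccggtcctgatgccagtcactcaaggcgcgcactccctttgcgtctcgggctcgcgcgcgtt
BMF: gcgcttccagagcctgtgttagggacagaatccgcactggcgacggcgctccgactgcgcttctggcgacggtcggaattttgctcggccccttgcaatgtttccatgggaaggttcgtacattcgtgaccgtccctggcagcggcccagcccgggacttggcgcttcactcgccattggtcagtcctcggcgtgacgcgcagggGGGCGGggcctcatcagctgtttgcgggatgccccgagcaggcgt
BCL2L11: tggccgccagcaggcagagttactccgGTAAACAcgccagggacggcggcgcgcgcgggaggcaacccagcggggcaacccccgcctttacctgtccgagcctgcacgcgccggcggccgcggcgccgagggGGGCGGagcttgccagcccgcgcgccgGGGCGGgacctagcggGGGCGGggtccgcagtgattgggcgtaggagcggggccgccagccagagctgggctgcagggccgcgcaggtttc
BAX: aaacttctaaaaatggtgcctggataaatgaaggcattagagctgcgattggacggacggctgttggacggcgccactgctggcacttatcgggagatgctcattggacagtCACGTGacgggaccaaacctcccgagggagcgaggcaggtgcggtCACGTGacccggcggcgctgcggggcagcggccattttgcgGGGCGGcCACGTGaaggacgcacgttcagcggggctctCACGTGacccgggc
The search covered both strands for the E-box CACGTG, the AP-1 motif TGANTCA, the GC box GGGCGG, the ETS motif CCGGAAG, the FOXO motif GTAAACA and the TEAD motif CATTCC. It was run on windows that also hold the 50 bases after the start, of which 8 of the 10 members had at least 1 (15 windows in all). BCL2L11 had the FOXO motif 223 bases before its start, and 3.42% of all 35116 windows held it. It also had 3 GC boxes, a motif found in 44.95% of windows. BAX had 4 E-boxes, at 138, 93, 45 and 14 bases before the start, and 7.26% of all windows held at least 1. BMF had 1 GC box before its start, 45 bases away. BCL2L1 had none of these motifs in the printed bases, and its ETS motif began 10 bases after the start (10.3% of windows). BBC3 was the 1 member with the AP-1 motif, 113 bases before its start (7.71% of windows). A match is a run of letters and not a shown binding site, and the counts do not tell which start was used.

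Among the survival genes, BCL2L1 and MCL1 were both lower in the knockout-labelled library, BCL2L1 by far the more, and BCL2L2 differed by less than counting error. BCL2L1, the gene of BCL-xL, had 6624 counts in control cells and 1585 in the knockout-labelled library, which is 303 and 96.6 CPM. It was 3.13-fold lower (2.97 to 3.31). Its log2 ratio with 1 CPM added to both libraries was -1.64, and 1.68% of the 12644 genes compared (mean of at least 1 CPM) lay at or below that value. In bulk RNA, fewer cells that express a gene and less of its RNA per cell cannot be told apart. MCL1 (chromosome 1, 150574551 to 150579738), the gene of a short-lived survival protein, had 6132 counts and 3221 counts (280.2 and 196 CPM), 1.43-fold lower (1.37 to 1.49). BCL2L2 (chromosome 14, 23298790 to 23311759), the gene of BCL-w, had 804 and 623 counts (36.7 and 37.97 CPM), a ratio of 1.03 (0.929 to 1.15).

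The row of BCL2L1 cannot be read alone. BCL2L1 lies on the minus strand of chromosome 20 (31664452 to 31723989), and ABALON, an antisense RNA gene on the other strand, shares 1424 exon bases with it. ABALON had 3177 counts in control cells and 794 in the knockout-labelled library (145 and 48.4 CPM), a ratio of 0.333 (0.308 to 0.360) beside 0.319 (0.302 to 0.337) for BCL2L1. No source used here says whether the counting used strand, so reads of the 2 genes cannot be told apart. Summed, both rows were 3.09-fold lower (2.95 to 3.23). The counts also do not separate the long, protective BCL-xL transcript from the short BCL-xS form.

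BCL2L2 shares 813 exon bases with the read-through gene BCL2L2-PABPN1 on the same strand of chromosome 14. BCL2L2-PABPN1 had 1824 and 1537 counts (83.4 and 93.7 CPM), a ratio of 1.12 (1.05 to 1.20), and both rows together had a ratio of 1.10 (1.04 to 1.16). No source used here says how reads of the shared exons were split between the rows. On the other strand, BCL2L2 also shares 206 exon bases with PPP1R3E, which had 96 counts in control cells and 79 in the knockout-labelled library.

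**Figure D1:**
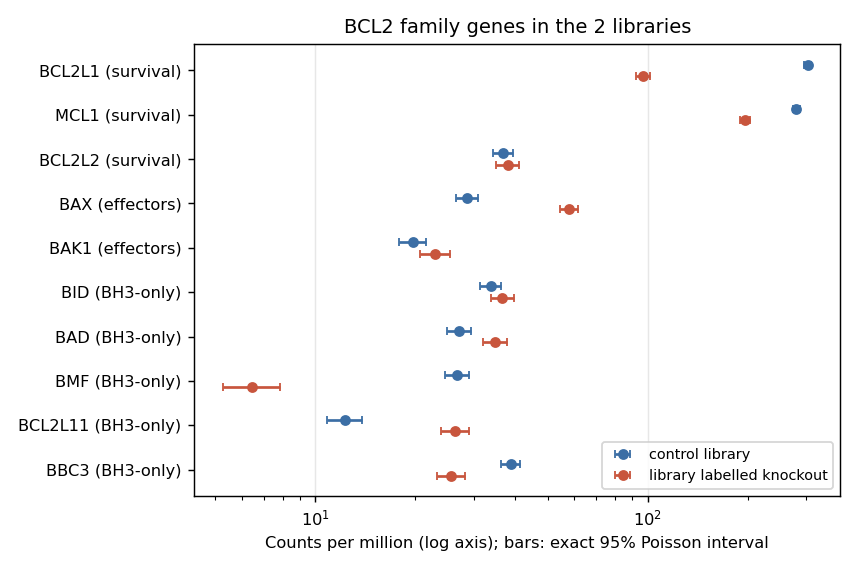
CPM of the 10 members (log axis) in the control library (blue) and the knockout-labelled library (red), with exact 95% Poisson intervals as bars. BCL2L1 goes from 303 to 96.6 CPM and BMF from 26.7 to 6.46 CPM, while BAX and BCL2L11 sit higher in the knockout-labelled library.

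Both effectors had a higher CPM in the knockout-labelled library, BAX by 2.03-fold and BAK1 by 1.17-fold. BAX, which moves from the cytosol to the mitochondrion when activated, had 626 counts in control cells and 953 in the knockout-labelled library (28.6 and 58.1 CPM). The interval of its ratio was 1.83 to 2.25, and 6.85% of the genes compared lay at or above its log2 ratio. That log2 ratio, 0.997 with 1 CPM added, stood just under the rule of 1. BAK1 (chromosome 6, 33572547 to 33580293), the gene of the effector that resides in the outer membrane, had 430 and 376 counts (19.7 and 22.9 CPM), with a counting interval of 1.01 to 1.34. Its log2 ratio was 0.21, and 43.4% of the genes compared lay at or above it. Under the other scalings and pseudocounts tried, that log2 ratio was as low as 0.06. No gene of the annotation overlapped BAX (chromosome 19, 48954815 to 48961798, plus strand).

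The BH3-only genes went in opposite directions, with BMF and BBC3 lower, BCL2L11 and BAD higher, and BID within counting error. BMF, whose protein is tethered to the actin cytoskeleton through a dynein light chain, had 585 counts in control cells and 106 in the knockout-labelled library (26.7 and 6.46 CPM). It was 4.14-fold lower (3.36 to 5.14), the widest difference of the family, and 1.06% of the genes compared lay at or below its log2 ratio of -1.89. BMF lies on the minus strand of chromosome 15 (40087890 to 40108892) and shares 461 exon bases with BMF-AS1 on the other strand. The symbol BMF-AS1 has no row in the counts, so reads of the pair cannot be told apart.

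BCL2L11, the gene of BIM, which binds every main survival protein, went the other way. It had 269 counts in control cells and 432 in the knockout-labelled library (12.3 and 26.3 CPM), 2.14-fold higher (1.84 to 2.50). Its log2 ratio was 1.04, and 5.90% of the genes compared lay at or above it. BCL2L11 lies on the plus strand of chromosome 2 (111119378 to 111168447) and shares 727 exon bases with MIR4435-2HG, a long noncoding RNA gene on the other strand. MIR4435-2HG had 1231 and 315 counts (56.3 and 19.2 CPM), a ratio of 0.341 (0.301 to 0.387), opposite in direction to BCL2L11. MIR4435-2HG brings 1231 of the 1500 control counts of both genes, so their summed ratio, 0.664 (0.608 to 0.726), follows its own. Here too the use of strand in counting is not stated, so reads of the 2 genes cannot be told apart. The higher value of BCL2L11 rests on its own row and turns to a lower one in the sum.

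BBC3 (chromosome 19, 47220822 to 47232766), the gene of PUMA and a classic target of p53, had 847 counts in control cells and 420 in the knockout-labelled library (38.7 and 25.6 CPM), 1.51-fold lower (1.34 to 1.70). BAD (chromosome 11, 64269830 to 64284704), whose protein survival kinases hold inactive through binding to 14-3-3 proteins, had 593 and 570 counts (27.1 and 34.7 CPM), a ratio of 1.28 (1.14 to 1.44). BAD shares 404 exon bases with GPR137 on the other strand, which had a similar ratio of 1.39 (1.23 to 1.56). BID (chromosome 22, 17734138 to 17774770), whose protein caspase-8 cleaves to carry a death receptor signal to mitochondria, had 739 and 600 counts (33.8 and 36.6 CPM), a ratio of 1.08 (0.971 to 1.21).

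Counted by the 2-fold rule (a log2 ratio, with 1 CPM added, that reaches 1 or -1), 1 of the 10 members was higher, BCL2L11, and 2 were lower, BCL2L1 and BMF. Over all 12644 genes compared, 6.78% were higher and 5.69% lower by that rule, and 12.5% lay past it in either direction. The other 7 members lay between, 6 of the 10 had a log2 ratio above 0 (58.1% of all genes) and 4 below 0 (41.9%), and the median of the 10 was 0.08 beside 0.12 for all genes compared. BCL2L11 and BAX sit at the edge of the rule. With TMM scaling (a trimmed mean of the ratios of genes) BCL2L11 stood at 0.92 and 0 members were higher. With a pseudocount of 0.1 BAX joined BCL2L11 past the rule, at 1.02. BCL2L1 and BMF stayed past the rule under each scaling and pseudocount tried.

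**Figure D2:**
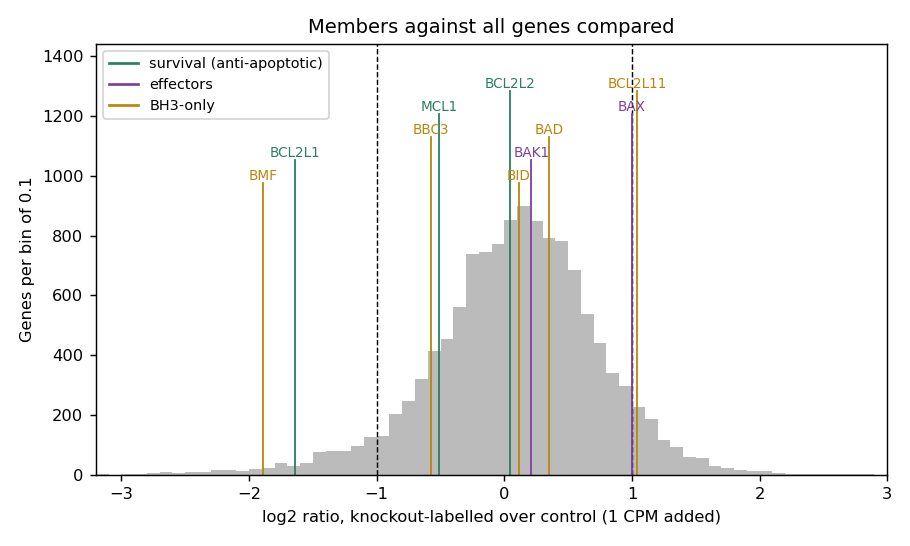
Number of genes per bin of 0.1 in log2 ratio, knockout-labelled over control with 1 CPM added, for the 12644 genes compared within the plotted range, with the members as coloured lines by role and the 2-fold rule as dashed lines. BMF (-1.89) and BCL2L1 (-1.64) lie in the lower tail, BAX and BCL2L11 at the upper dashed line, and the other members in the body.

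**Figure D3:**
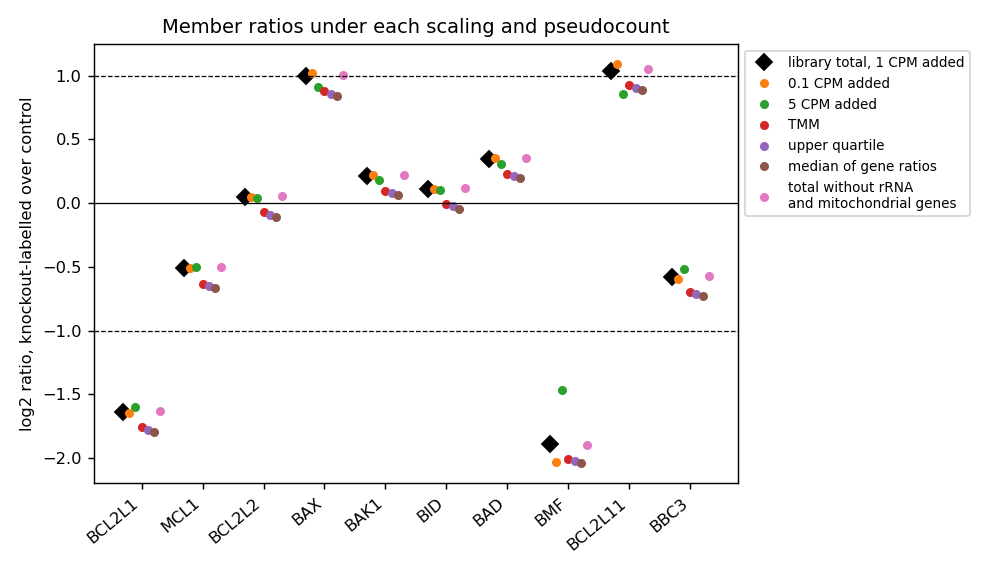
The log2 ratio of each member, knockout-labelled over control, with the library total and 1 CPM added (black diamonds) and with 6 other scalings or pseudocounts (coloured points). BCL2L1 and BMF lie below -1 in every setting, BAX and BCL2L11 lie on both sides of 1, and BCL2L2 and BID lie on both sides of 0.

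The ratio of 2 members inside a library does not depend on the scaling of libraries, and it was compared for 16 pairs. Relative to BCL2L1, each of BAX, BAK1, BCL2L11 and BBC3 was higher in the knockout-labelled library. Most genes would be, since 98.3% of the genes compared lay at or above the log2 ratio of BCL2L1. BBC3 by itself was lower there, with a CPM ratio of 0.661. For every 1000 counts of BCL2L1 there were 40.6 counts of BCL2L11 in control cells and 273 in the knockout-labelled library, a 6.71-fold change (5.69 to 7.92). With MIR4435-2HG summed into BCL2L11 that change was 2.08-fold (1.87 to 2.31). For BAX the numbers were 94.5 and 601, a 6.36-fold change (5.66 to 7.15). The change was 3.65-fold (3.14 to 4.25) for BAK1 and 2.07-fold (1.82 to 2.36) for BBC3 over BCL2L1.

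Relative to MCL1 the changes were smaller, and 84.3% of the genes compared lay at or above the log2 ratio of MCL1. BCL2L11 was 3.06-fold higher (2.60 to 3.59), BAX 2.90-fold (2.59 to 3.24) and BAK1 1.66-fold (1.44 to 1.93), and BBC3 over MCL1 had a ratio of 0.944 (0.831 to 1.07), within counting error. Relative to BCL2L2, BCL2L11 was 2.07-fold (1.72 to 2.50) and BAX 1.96-fold higher (1.69 to 2.28), BAK1 had a ratio of 1.13 (0.945 to 1.35), and BBC3 was lower at 0.640 (0.545 to 0.751). The sum of BCL2L11 and MIR4435-2HG had ratios of 0.948 (0.859 to 1.05) over MCL1 and 0.643 (0.559 to 0.739) over BCL2L2.

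BMF alone among these death genes was lower relative to each of the survival genes. It was lower even relative to BCL2L1, at 0.757 (0.605 to 0.940), and at 0.345 (0.277 to 0.427) relative to MCL1 and 0.234 (0.184 to 0.296) relative to BCL2L2. Against the other BH3-only gene past the rule, per 1000 counts of BCL2L11 there were 2175 counts of BMF in control cells and 245 in the knockout-labelled library, 8.86-fold fewer (6.81 to 11.6), or 2.75-fold fewer (2.19 to 3.47) with MIR4435-2HG summed into BCL2L11.

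**Figure D4:**
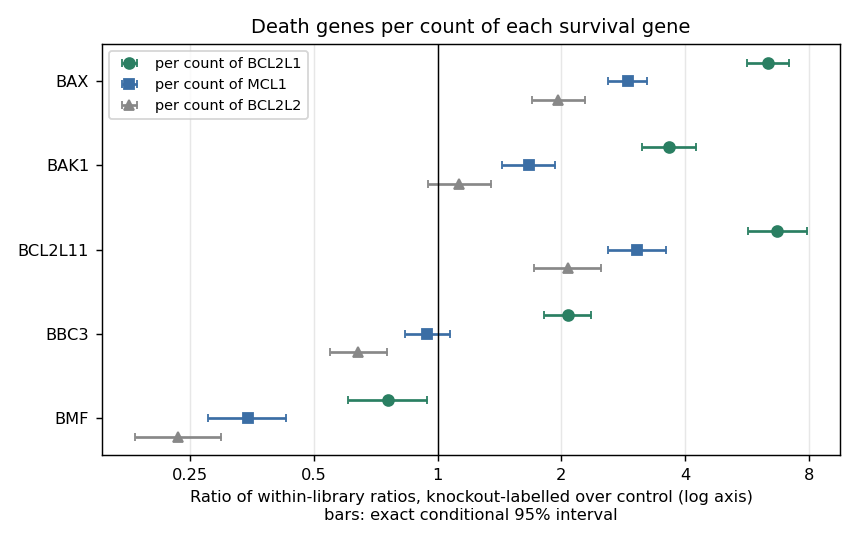
Change between libraries in the counts of 5 death genes per count of each survival gene (log axis; circles BCL2L1, squares MCL1, triangles BCL2L2), with exact conditional 95% intervals. Relative to BCL2L1, BCL2L11 on its own row changes 6.71-fold (2.08 with MIR4435-2HG summed in, not drawn) and BAX 6.36-fold, and BMF lies below 1 against all 3.

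Levels of different genes were set side by side per kilobase of the longest principal transcript in GENCODE v29. In the control the order was led by BCL2L1 at 116 CPM per kilobase, followed by MCL1 at 71.3, BAX at 36.1, BAD at 23.4 and BBC3 at 21.1. BID had 13.5 CPM per kilobase, BCL2L2 10.2, BAK1 9.20, BCL2L11 8.08 and BMF 5.70. Neighbours with overlapping counting intervals were BAD and BBC3, BCL2L2 and BAK1, and BAK1 and BCL2L11. In the knockout-labelled library BAX led at 73.3 CPM per kilobase, before MCL1 at 49.9, BCL2L1 at 37.0, BAD at 30.0 and BCL2L11 at 17.3. BID, BBC3, BAK1 and BCL2L2 followed at 14.7, 13.9, 10.7 and 10.5, and BMF was last at 1.38. In that library the intervals overlapped for the neighbours BCL2L11 and BID, BID and BBC3, and BAK1 and BCL2L2.

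The place of BAX and BCL2L11 in this order depends on which length is used, because their principal transcripts (793 and 1522 bases) are much shorter than the union of their exons (2587 and 6658 bases). Per kilobase of exon union, BAX had 11.1 CPM in control cells and 22.5 in the knockout-labelled library, where MCL1 led at 44.9. BCL2L11 then had 1.85 and 3.95 CPM per kilobase and stood last and next to last. With either length MCL1 took over from BCL2L1 as the most abundant survival gene. BCL2L1 made up 58.7% of the summed level of the 3 survival genes in control cells and 38.0% in the knockout-labelled library, or 55.6% and 35.1% with the exon union. MCL1 made up 36.1% and 51.2%, or 39.0% and 54.0% with the exon union. Within the 5 BH3-only genes BMF went from 7.94% to 1.78% of the summed level, or from 11.6% to 2.84% with the exon union.

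In a list of 14 further BCL2 family genes 8 were measured. Of the 8, 1 was higher and 1 lower (median log2 ratio 0.05), beside 6.78% and 5.69% of all genes compared. The 8 include BCL2L2-PABPN1, the read-through row that shares exon bases with the member BCL2L2. The BH3-only genes PMAIP1 (NOXA) and BIK had 64.6 and 64.98 CPM, and 37.4 and 38.2 CPM, in control cells and the knockout-labelled library. BOK, an effector-like member, had 22.4 and 23.8 CPM. BCL2 itself was barely detected, with 9 counts in control cells and 24 in the knockout-labelled library (0.411 and 1.46 CPM), and BCL2A1 had 0 counts in both. BNIP3L, a mitophagy receptor with a BH3-like region, had 5743 and 1336 counts (262 and 81.4 CPM), 3.22-fold lower (3.04 to 3.42). BCL2L15 had 79 and 178 counts (3.61 and 10.8 CPM), 3.01-fold higher (2.29 to 3.97), but stood at 0.88 on the log2 scale, under the rule, with a pseudocount of 5.

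Downstream of the pore, all 14 genes listed as apoptosome and released factors were measured. Of these, 2 were higher and 0 lower, and the median log2 ratio was 0.32. The list also holds the inhibitor of apoptosis genes XIAP, BIRC2, BIRC3 and BIRC5 (log2 ratios 0.24, 0.36, 0.14 and 0.68), so its median mixes both roles. Over all genes compared, 6.78% were higher and 5.69% lower, and the median was 0.12. CASP6, an executioner caspase, had 14.1 and 31.4 CPM, 2.22-fold higher (1.93 to 2.57), and the mitochondrial nuclease ENDOG had 5.30 and 11.7 CPM, 2.21-fold higher (1.74 to 2.80). Both stood under the rule with TMM (0.98 and 0.90). Of 11 outer membrane partners, 1 was higher, 0 were lower and the median was 0.30. That gene was TOMM40, the protein import channel, with 116 and 298 CPM, 2.57-fold higher (2.45 to 2.70).

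The list of anchors of BH3-only proteins, 14-3-3 genes and BAG genes also gave 1 higher and 0 lower, of 11 measured (median 0.32). The higher gene was not an anchor or a 14-3-3 gene but BAG1, a co-chaperone that binds BCL2. It had 24.8 and 60.8 CPM, 2.45-fold higher (2.20 to 2.72). Among the kinases, ligases and proteases that act on members, 18 were measured, 0 were higher and 1 was lower (median -0.05). PIM1, a kinase that phosphorylates BAD, had 172 and 79.9 CPM, 2.15-fold lower (2.02 to 2.29). For both lists, the values over all genes compared were 6.78% higher, 5.69% lower and a median of 0.12.

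Of 16 measured transcription factors known to act on family genes, 0 were higher and 2 were lower (median -0.13, beside 0.12 for all genes compared). ETS1 had 432 counts in control cells and 53 in the knockout-labelled library (19.7 and 3.23 CPM), 6.11-fold lower (4.59 to 8.29). FOXO4 had 479 and 141 counts (21.9 and 8.59 CPM), 2.55-fold lower (2.11 to 3.10), and stood at -0.98 with a pseudocount of 5. Over the 6 lists, 5 of 78 measured partner genes were higher and 4 lower, beside 6.78% and 5.69% of all genes compared.

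**Figure D5:**
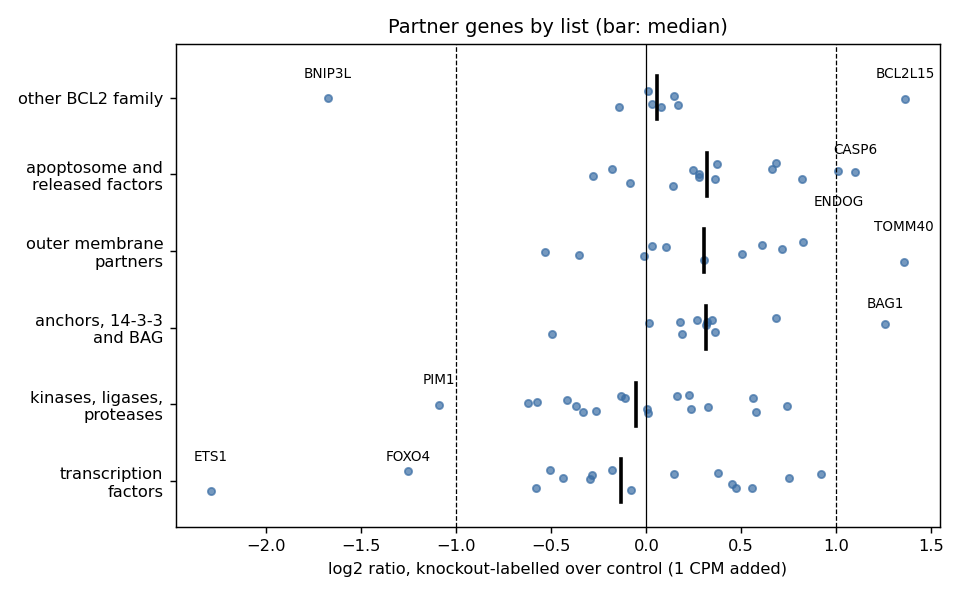
The log2 ratio, knockout-labelled over control with 1 CPM added, of the 78 measured partner genes in 6 lists (points, spread vertically for legibility), with list medians as bars and the 2-fold rule as dashed lines. The 9 genes past the rule are labelled, from ETS1 (-2.29) to BCL2L15 (1.36).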

How the data were processed

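RNA was sequenced in 2 libraries, and the authors deposited a table of raw counts per gene symbol for each. The submitters' processing notes name TopHat and GRCh38; no source used here gives a version, the counting program, its annotation or its use of strand. The kit was directional, per the labels' protocols. Rows of a symbol were summed (58173 rows to 52402 symbols) and scaled to CPM by the column total. The 12644 genes whose mean reached 1 CPM were compared. A fold is the plain ratio of CPM, and its interval is an exact Clopper-Pearson interval conditional on the summed count; ratios within a library have exact conditional odds ratio intervals. PCR duplicates would make these too narrow. A count of 0 allows up to 3 counts, or 0.137 CPM (control) and 0.183 CPM (knockout-labelled). Scaling factors came from edgeR 4.0.16 in R 4.3.3, other values from Python 3.11.15 with scipy 1.17.1. The procedure was tested on simulated data. All 10 members are named, and of each other list the genes past the rule, plus BCL2, BOK, BIK and PMAIP1. BCL2A1, GPR137, PPP1R3E, ABALON, MIR4435-2HG, XIAP, BIRC2, BIRC3, BIRC5 and the markers named stand as values only. Members and lists were chosen with earlier results of these data known. Gene positions and lengths come from GENCODE v29, promoters from RefSeq.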

Additional observations from a re-analysis of the deposited data

How the results depend on the processing

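No paired analysis was possible because there is 1 library per group and no replicate number. The count of higher members was 2 with a pseudocount of 0.1 CPM, with library totals without ribosomal RNA and mitochondrially encoded genes, and with a 1.5-fold rule; it was 0 with a pseudocount of 5 CPM, with TMM, upper quartile and median of gene ratios scaling, and with a 3-fold rule. The lower members were 2, BCL2L1 and BMF, under each scaling and pseudocount, and 2 with each filter and size rule. Partner genes higher were 2 with a pseudocount of 5 CPM, 3 with each of the 3 other scalings, 15 with a 1.5-fold rule and 0 with a 3-fold rule, which left 2 lower. Over all genes, a pseudocount of 5 CPM gave 426 higher and 371 lower, a 1.5-fold rule 2567 and 1674, a 3-fold rule 118 and 229, and the median of gene ratios 544 higher. The share of higher genes among those past the rule was 54.4% with library totals, 40.6% with TMM, 38.5% with the upper quartile and 36.5% with the median of gene ratios. The last 3 scalings move log2 ratios by -0.12, -0.14 and -0.16, which turned the sign of BCL2L2 and BID. Summed with MIR4435-2HG, BCL2L11 stood at -0.58, a sum chosen after seeing the data, as were the sum of BCL2L1 with ABALON and the exon union length; most control counts in the first sum are those of MIR4435-2HG.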

Other observations

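Some genes of the partner lists had counts at or near 0 in both libraries, which bears on how far a low value in these tables can be read. YWHAE, a 14-3-3 gene, had 19 counts in control cells and 17 in the knockout-labelled library, while its paralog YWHAZ had 38650 and 20540 counts. RPS6KA1, a kinase gene, had 0 counts in both, and RPS6KA3 had 2522 and 1457. BNIP3 had 0 counts and 1 count, beside 5743 and 1336 for BNIP3L. YWHAE and RPS6KA1 stand on 2 rows of the tables each, as do the markers KRT20 and PTPRC, which had 0 counts in both libraries, while BNIP3 stands on 1 row. Of the 2687 symbols on 2 or more rows, 79.7% had 0 counts in both libraries, beside 57.5% of the 49715 symbols on 1 row, so a 0 of such a symbol is not read as absence here. Whether reads were lost in alignment or counting was not tested. These genes were chosen after their values were seen.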
